A study of Mus musculus with 6 samples.

Results

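The nuclei described here are the mesenchymal nuclei of mouse tibial periosteum, the fibrous sheath that covers bone, compared between uninjured bone and day 3 after a fracture, gene by gene across the genome. Single nuclei were profiled by droplet RNA sequencing with unique molecular identifiers (UMIs), so that each UMI counts 1 captured RNA molecule. All libraries came from wild-type C57BL6 mice (C57BL/6ScNj in the study's methods) with no transgene, 12 weeks of age, with males and females mixed. Each of the 2 uninjured libraries pooled periosteum scraped from the tibias of 4 mice. Each of the 2 day 3 libraries pooled activated periosteum and fracture hematoma from 4 to 9 mice that had an open, non-stabilized tibial fracture. The hematoma was collected after fracture only, so the injury and the added tissue cannot be told apart in any comparison below.

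The nuclei were chosen by measured UMI counts. A nucleus was counted as mesenchymal when it held at least 2 UMIs summed over Col1a2, Col3a1, Prrx1, Pdgfra and Postn. It also had to hold no UMI of Ptprc, the pan-leukocyte phosphatase, or Pecam1, the endothelial adhesion receptor, fewer than 2 UMIs of the smooth muscle genes Myh11 and Myocd, and under 1% of its UMIs in the muscle genes Ttn, Neb, Ckm and Acta1. Nuclei entered with 200 to 5000 genes detected, under 2% mitochondrial UMIs and under 1.5% ribosomal protein UMIs. The rule took 969 nuclei, 492 uninjured and 477 at day 3, of 4299 that passed these quality limits and of 7567 barcodes in the 4 libraries. The whole series held 13551 barcodes. The 4 libraries gave 93 and 399 uninjured nuclei and 151 and 326 day 3 nuclei, with 198321, 1848489, 473231 and 1572567 UMIs in all. Median UMIs per nucleus were 1837, 2816, 2290 and 3085. At the edge of the rule, nuclei with exactly 2 UMIs of the 5 genes numbered 27, 48, 17 and 29 in that order, and nuclei with exactly 1 UMI, just outside it, numbered 39, 69, 29 and 29. Between 0 and 7 barcodes were shared by any pair of libraries, and none of the nuclei counted here shared a barcode.

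From here on, values listed for a gene are CPM, a gene's UMIs scaled to 1000000 UMIs of these nuclei, in the order uninjured replicate 1, uninjured replicate 2, day 3 replicate 1 and day 3 replicate 2. The genes that chose the nuclei are given as a description only. Postn, a matricellular protein of injured periosteum, stood at 65.7, 107, 771 and 1176 CPM, and Col1a2, a chain of type I collagen, at 556, 1348, 1726 and 3227 CPM. Prrx1, a limb mesenchyme transcription factor, stood at 713, 1080, 338.5 and 584 CPM, and Pdgfra, a growth factor receptor of mesenchymal progenitors, at 339, 374, 145 and 224 CPM. So the collagen and Postn share of the rule was larger at day 3 and the Prrx1 and Pdgfra share was larger in uninjured bone. Nuclei outside the rule were not compared, so the label itself was not tested. As a description, 12 mesenchymal genes that the rule did not use were read in the same nuclei, among them Col1a1, Fbn1, Cdh11 and Lum. All 12 were detected in every library, and their summed level was 5988, 7897, 6578 and 9714 CPM. Only the small proteoglycan Dcn, with 819, 1813, 136 and 343 CPM, was called lower at day 3 among them.

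Periosteal mesenchymal cells include the progenitors that build a fracture callus. After a fracture, blood clots at the break and inflammatory cells arrive, and the progenitors leave a quiescent state, divide, migrate and lay down a provisional fibrous matrix before cartilage and bone form. Programs known to follow such activation elsewhere include the cell cycle, ribosome production, chemokine secretion, actin remodelling and matrix remodelling, whereas resting fibroblasts carry genes of lipid handling, detoxification, complement and cell adhesion. The lists used below group genes by these functions.

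Summed per library, 10107 genes that played no role in choosing the nuclei were abundant enough to test. With quasi-likelihood fits in edgeR and p-values adjusted after Benjamini and Hochberg, 883 of them (8.74%) differed at an adjusted p under 0.05. Of these, 351 (3.47%) were higher at day 3 and 532 (5.26%) were lower. The counts per function list below are to be read against these 2 shares. Changes were large. The median log2 fold change was 3.22 among the genes that rose and -2.95 among those that fell, against 0.05 over all genes tested. At least 4-fold changes were fitted for 282 of the genes that rose and 417 of those that fell. All 883 pointed the same way in each of the 4 possible pairs of libraries from the 2 groups. A call made on 2 libraries a group favours genes whose groups do not overlap. Such agreement among called genes, here and below, is therefore a description and no separate support. Within these totals, 14 of the genes that rose had no UMI in either uninjured library, and 22 of those that fell had none in either day 3 library. With bulk sums of this kind, fewer cells of a type and less RNA per cell cannot be told apart. The labels do not say whether the 2 libraries of a group came from separate mice, and p-values measure only the spread between these libraries, which may be technical.

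**Figure D1:**
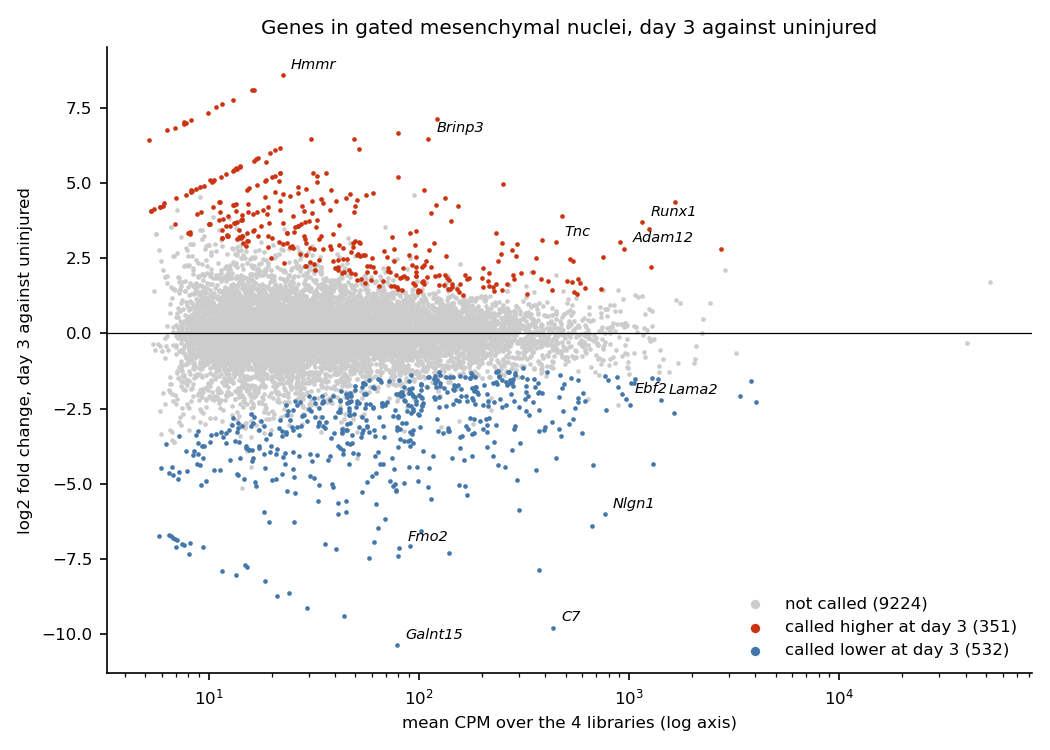
Log2 fold change of day 3 against uninjured (vertical axis) over the mean level in CPM on a log axis (horizontal axis) for every gene tested in the gated mesenchymal nuclei, with each point 1 gene and colours for genes called higher, called lower or not called. The 351 higher and 532 lower genes spread over most of the range of levels, and the cloud of genes not called centres near 0.

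Libraries differed in ways other than the fracture. The uninjured replicate 1 library was the smallest by UMIs and was processed with Cell Ranger 6.0.0, the other 3 with version 7.1.0; without it, 494 genes were called higher and 690 lower. The day 3 replicate 1 library was counted on 32285 annotated genes and the other 3 on 31055; without it, 432 genes were called higher and 618 lower. Without uninjured replicate 2 the counts were 370 and 541, and without day 3 replicate 2 they were 403 and 580. In each of these fits the group left with 1 library is assumed to vary like the other. Of the genes called by edgeR and named below, DESeq2 did not call Lgr5, Pgk1, Nolc1, Fscn1, Fosl1, Cdc6, Mcm5, Schip1, Hhip, Bmp3, Gdf10, Omd, Fgf10 and Klf4, nor Atf4, Mt2, Cenpf, Adamts4 and Scd1. A few called genes differed strongly between the day 3 libraries: 15 were at least 8 times higher in replicate 2 and 2 were at least 8 times higher in replicate 1, after adding 1 CPM. Taco1 and Gm26917, named after their values were seen, stood apart in day 3 replicate 1. Taco1, a mitochondrial translation activator, stood at 278, 77.8, 5873 and 409 CPM, and the non-coding RNA Gm26917 at 606, 875, 7844 and 1645 CPM.

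Transcripts of other cell types were present in the gated nuclei and moved between the groups. The 13 monocyte and macrophage markers summed to 45.5 and 97.4 CPM without injury and to 275 and 818 CPM at day 3. Of the 8 that could be tested, 4 were called higher, namely Mrc1, Ctss, Arg1 and Adgre1. None of the 11 neutrophil markers was abundant enough to test, and they summed to 15.2, 4.90, 19.2 and 193 CPM, with Csf3r, the receptor for granulocyte colony-stimulating factor, at 83.0 CPM in day 3 replicate 2, and Ly6g, the defining mouse neutrophil antigen, at 0 in all 4. Myeloid transcripts were therefore highest in day 3 replicate 2, where 292 of 326 nuclei (89.6%) held at least 1 UMI of these markers, against 57 of 151 (37.7%) in day 3 replicate 1 and 10 of 93 (10.8%) and 73 of 399 (18.3%) in the uninjured libraries. The shares come from nuclei of unequal depth and were not thinned to 1 depth. In the other direction, 6 Schwann cell markers summed to 344, 900, 27.7 and 63.8 CPM, and 4 of 5 tested were called lower. The 4 adipocyte markers summed to 70.8, 293, 10.6 and 7.02 CPM with 3 of 3 tested called lower, and the 8 endothelial markers to 248, 176, 23.4 and 46.6 CPM with Tek, the angiopoietin receptor, called lower of 4 tested. The 8 skeletal muscle markers summed to 2309, 896, 975 and 1198 CPM, with Myh1 and Myh4 called lower of 8 tested. Most of that sum was Dmd, with 2042, 549, 824 and 816 CPM. Ryr1 (log2 fold change 1.47), Mybpc1 (0.93) and Trdn (0.13) were fitted higher, and Myh2 (-2.775), Mylk4 (-1.99) and Dmd (-0.67) lower, without a call. Lymphocyte markers stayed between 5.05 and 26.1 CPM and osteoclast markers between 5.05 and 54.9 CPM. Pericyte and smooth muscle markers lay between 75.8 and 195 CPM, and erythroid markers between 14.7 and 182 CPM. Few of these were abundant enough to test: 0 of 9 lymphocyte, 1 of 5 osteoclast, 3 of 7 pericyte and smooth muscle and 1 of 5 erythroid markers. No gene was called among those tested, which does not show that these lists were unchanged.

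**Figure D2:**
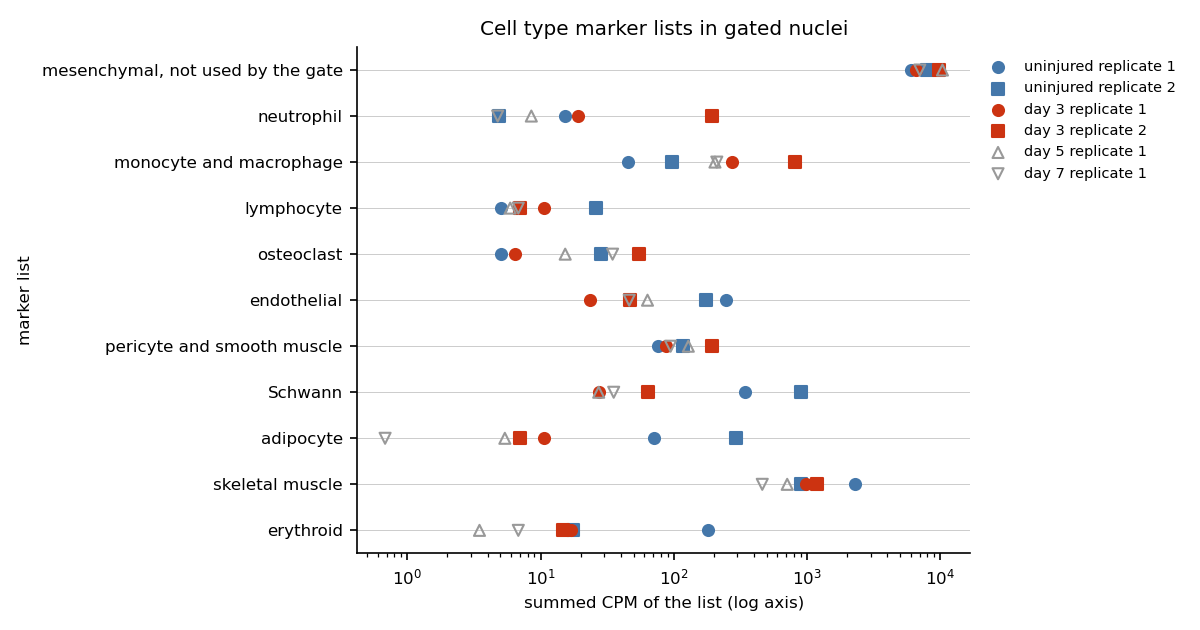
Summed CPM of each cell type marker list on a log axis (horizontal axis) in the gated nuclei of each library (points), with the lists on the vertical axis. Mesenchymal markers lie between 5988 and 9714 CPM in the 4 libraries, while monocyte and macrophage markers reach 818 CPM in day 3 replicate 2 and Schwann markers reach 900 CPM in uninjured replicate 2.

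The genes of mitosis rose together. Of 37 tested from a list of 40, 30 were called higher at day 3 and none lower, with a median log2 fold change of 4.05. Summed over the list, levels were 339 and 178 CPM without injury and 2150 and 1926 CPM at day 3. Hmmr, which helps to assemble the spindle, had no UMI in either uninjured library and stood at 51.1 and 38.9 CPM at day 3, at least 28.3-fold higher when 3 UMIs are allowed over the uninjured group (edgeR adjusted p = 0.0067). Cenpf, a kinetochore protein, stood at 5.05, 0, 59.6 and 58.1 CPM. With 1 uninjured UMI in all, its UMI ratio was 119 (95% exact interval 21.0 to 4739, edgeR adjusted p = 0.00996). DESeq2 did not call it (log2 fold change 5.49, DESeq2 adjusted p = 0.138), and its fitted value ran from 3.42 without uninjured replicate 2 to 9.29 without uninjured replicate 1, with the call kept. The condensin subunit gene Ncapg stood at 0, 0.544, 40.5 and 37.7 CPM, a UMI ratio of 78 (13.6 to 3120, edgeR adjusted p = 0.0067). Such ratios compare UMIs over each pair of libraries, whose totals were nearly equal, and their intervals cover counting error only. Top2a, the topoisomerase that untangles replicated chromosomes, stood at 0, 4.90, 145 and 168.5 CPM, a log2 fold change of 5.18 ± 0.56 (SE, n = 2 libraries a group, as for all that follow; edgeR adjusted p = 0.00221). Both day 3 libraries stood far above both uninjured libraries for each of these 4 genes, and the day 3 libraries lay close to each other. Cdk1, the kinase that drives entry into mitosis, stood at 5.05, 0, 25.5 and 44.7 CPM and lost its call without uninjured replicate 2 (log2 fold change 2.68, edgeR adjusted p = 0.184). Other members called higher included Mki67, the proliferation antigen, Aurka and Aurkb, the Aurora kinases, Bub1 and Bub1b of the spindle checkpoint, and the motors Kif11, Kif15 and Kif23. The list's count ranged from 20 to 33 when each library was left out. Myeloid markers rose in the same libraries. With every nucleus that held a myeloid marker UMI removed, 83, 326, 94 and 34 nuclei were left. There, 17 of the 19 mitosis genes still abundant enough to test were called higher. A gene near 0 in 1 group passes the count filter only through the other group, so this share is a description and no separate support. The same limit holds for such counts in the lists below.

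**Figure D3:**
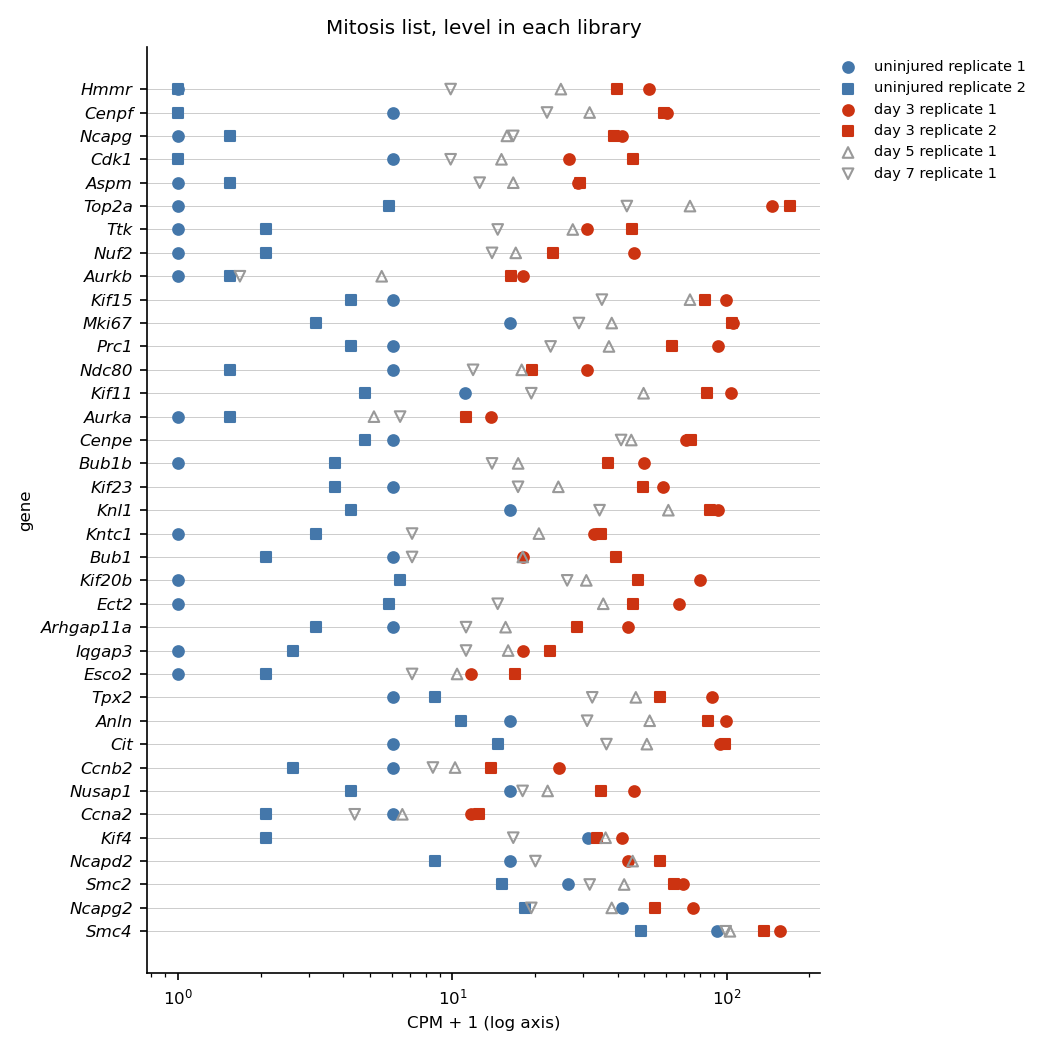
Level of each tested mitosis gene (vertical axis) as CPM + 1 on a log axis (horizontal axis), with 1 point for each library. The 2 day 3 points lie to the right of the 2 uninjured points in all 30 genes called higher, and the list sums to 2150 and 1926 CPM at day 3 against 339 and 178 CPM.

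The promoters of this group share a letter pattern. The cell cycle homology region with the letters TTTGAA is known from promoters of mitotic genes, often some distance downstream of CCAAT boxes. RefSeq promoter windows (GRCm38.p6), from 250 bases before the gene start to 50 after it, matched 32 of the 37 tested mitosis genes, and 84.4% of these held TTTGAA on either strand, against 18.1% of all 27025 promoter windows. CCAAT on either strand was in 68.8% of the mitosis windows and 37.9% of all windows. The windows of the 3 genes of the list with the largest rises are shown because they hold both patterns, in capitals (ATTGG is CCAAT read from the opposite strand), on the gene's own strand and up to 30 bases after the start. Hmmr lies at chr11:40733408-40733687 on the minus strand, Cenpf at chr1:189688057-189688336 on the minus strand and Ncapg at chr5:45669675-45669954 on the plus strand.
Hmmr: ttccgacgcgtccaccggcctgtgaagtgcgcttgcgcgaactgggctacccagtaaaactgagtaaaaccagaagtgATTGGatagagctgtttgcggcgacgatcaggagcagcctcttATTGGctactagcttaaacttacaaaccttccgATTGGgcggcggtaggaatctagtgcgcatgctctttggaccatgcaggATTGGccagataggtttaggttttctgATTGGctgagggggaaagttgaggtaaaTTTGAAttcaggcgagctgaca
Cenpf: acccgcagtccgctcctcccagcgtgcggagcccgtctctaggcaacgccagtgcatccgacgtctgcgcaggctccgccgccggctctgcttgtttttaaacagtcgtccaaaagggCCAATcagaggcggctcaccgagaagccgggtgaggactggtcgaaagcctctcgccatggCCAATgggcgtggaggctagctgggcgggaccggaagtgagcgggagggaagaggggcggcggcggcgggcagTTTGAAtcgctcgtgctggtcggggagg
Ncapg: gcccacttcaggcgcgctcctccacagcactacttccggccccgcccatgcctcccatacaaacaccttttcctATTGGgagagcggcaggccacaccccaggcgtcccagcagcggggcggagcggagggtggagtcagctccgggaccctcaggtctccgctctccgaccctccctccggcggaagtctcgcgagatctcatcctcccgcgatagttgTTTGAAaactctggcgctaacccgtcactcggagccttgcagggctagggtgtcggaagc
The Hmmr window held 5 CCAAT boxes and TTTGAA from base 9 after the start, the Cenpf window 2 CCAAT boxes and TTTGAA from base 3 after it, and the Ncapg window 1 CCAAT box and TTTGAA from base 30 before it. These are matches of letters and no binding was measured.

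A smaller share of DNA replication genes rose. Of 26 tested from a list of 30, 10 were called higher and none lower, with a median log2 fold change of 2.22, and the list summed to 369, 363, 1184 and 1232 CPM. The 10 included Cdc45 and Pole of the replication fork, the licensing genes Cdc6 and Mcm5, and E2f7 and E2f8, the atypical E2F repressors of the S phase program. Brca1, the DNA repair gene, stood at 0, 1.09, 36.2 and 42.8 CPM, a UMI ratio of 42 (11.3 to 352, edgeR adjusted p = 0.00745). These single genes rested on few UMIs and several depended on 1 library. Brca1 lost its call without day 3 replicate 2 (log2 fold change 5.25, edgeR adjusted p = 0.0736), as did E2f7 without uninjured replicate 2 (7.50, edgeR adjusted p = 0.0799) and Cdc6 and Mcm5 without day 3 replicate 1 (3.82 with edgeR adjusted p = 0.0935, and 4.62 with edgeR adjusted p = 0.0613). The list's count fell to 5 without uninjured replicate 2 or without day 3 replicate 2. No gene was called by edgeR among the 13 tested inhibitors of cyclin-dependent kinases and growth arrest genes, whose median log2 fold change was -0.26, with 3 at an unadjusted p under 0.05, and DESeq2 called 0 too. Foxo1 and Foxo3, transcription factors of quiescence, stood at 308, 226, 194 and 156 CPM and at 318, 201, 228 and 199 CPM.

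Part of the genes for making ribosomes also rose. Of 28 tested, 7 were called higher and none lower, with a median log2 fold change of 1.31: Npm1, Rrp1b, Nolc1, Nop56, Nop58, Gnl3 and Ncl, all of the nucleolus. The list summed to 925 and 740 CPM in uninjured bone and to 2033 and 1737 CPM at day 3. Npm1, the nucleolar chaperone, stood at 20.2, 28.8, 215 and 208 CPM, a log2 fold change of 3.00 ± 0.40 (edgeR adjusted p = 0.00359). Nop56, a core protein of the particles that modify ribosomal RNA, stood at 20.2, 28.8, 132 and 103 CPM (2.16 ± 0.45, edgeR adjusted p = 0.0188). In both genes each day 3 library exceeded each uninjured library by more than the spread within either group. The mouse genome holds processed copies of Npm1, and how reads were divided among them was not tested. Without day 3 replicate 1 the list's count fell to 4. Nolc1 lost its call without uninjured replicate 2 (log2 fold change 2.83, edgeR adjusted p = 0.129), without day 3 replicate 1 (2.24, edgeR adjusted p = 0.0714) or without day 3 replicate 2 (2.54, edgeR adjusted p = 0.181).

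In the secretory pathway, 2 of 29 tested genes were called higher (6.90%, against 3.47% of all genes tested), with a median log2 fold change of 0.64. Creb3l1, the transcription factor that drives collagen secretion in osteoblasts, stood at 20.2, 16.3, 113 and 123 CPM (2.75 ± 0.43, edgeR adjusted p = 0.00688). Atf4, the effector of the integrated stress response, stood at 65.7, 44.1, 130 and 155 CPM but lost its call without uninjured replicate 2 (1.03, edgeR adjusted p = 0.271) or day 3 replicate 1 (1.41, edgeR adjusted p = 0.0701), and with DESeq2 (1.42, DESeq2 adjusted p = 0.123). Of 24 hypoxia and glycolysis genes, edgeR called 4 higher and none lower, with a median of 0.60, and DESeq2 called 3 higher and 1 lower. Hif1a, the oxygen-sensitive transcription factor, stood at 75.8, 72.9, 334 and 467 CPM (2.41 ± 0.33, edgeR adjusted p = 0.0043). Pkm, the last enzyme of glycolysis, stood at 20.2, 43.5, 124 and 238 CPM (2.28 ± 0.43, edgeR adjusted p = 0.013). The uninjured and day 3 levels of both did not overlap. Pgk1 and Eno1 were the other 2 and lost their calls without day 3 replicate 2 (2.03 with edgeR adjusted p = 0.239, and 2.18 with edgeR adjusted p = 0.366), and Eno1 also without uninjured replicate 2 (2.33, edgeR adjusted p = 0.0928). Among 13 tested genes of the oxidative stress response, edgeR called 3 higher and none lower, with a median of 0.57, and DESeq2 called 2 higher. Hmox1, the enzyme that degrades heme, stood at 0, 5.44, 134 and 104 CPM, a log2 fold change of 4.67 ± 0.63 (edgeR adjusted p = 0.00397). A single nucleus held 44.4% of its UMIs in day 3 replicate 1 and 17.8% in day 3 replicate 2. Txnrd1, a thioredoxin reductase, stood at 30.3, 26.1, 123.5 and 107 CPM and lost its call without uninjured replicate 2 (1.85, edgeR adjusted p = 0.0555). Mt2, a metallothionein, stood at 15.2, 8.16, 38.3 and 54.9 CPM and lost its call without uninjured replicate 2 (1.52, edgeR adjusted p = 0.313) or day 3 replicate 2 (2.11, edgeR adjusted p = 0.236), and with DESeq2. Myeloid markers rose in the same libraries; with nuclei holding a myeloid marker UMI left out, 1 of the 6 members still tested was called higher, and the markers' part was not tested further.

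Part of the cytokine and chemokine genes rose in the gated nuclei. Of 29 tested, 10 were called higher and none lower, with a median log2 fold change of 1.30, and the list summed to 1622, 1793, 3878 and 3687 CPM. Cxcl5, a chemokine that attracts neutrophils, stood at 0, 1.63, 134 and 182 CPM, a UMI ratio of 116 (39.4 to 565, edgeR adjusted p = 0.00141). Ccl2, which attracts monocytes, stood at 0, 0.544, 23.4 and 63.8 CPM, a ratio of 111 (19.5 to 4423, edgeR adjusted p = 0.00676). Both were near absent from the uninjured nuclei and present in both day 3 libraries. Cxcl1, another neutrophil chemokine, stood at 0, 0.544, 17.0 and 35.1 CPM, and Il1rl1, the receptor of interleukin 33, at 0, 0.544, 46.8 and 18.5 CPM. Each lost its call without uninjured replicate 2 (7.38 with edgeR adjusted p = 0.111 and 7.67 with edgeR adjusted p = 0.0552). The other 6 were the monocyte chemokine Ccl7, the receptors Il1r1 and Il4ra, the osteoclast-inducing ligand Tnfsf11, the prostaglandin synthase Ptgs2 and Nfkbiz, a regulator of inflammatory transcription. Myeloid cells also make some of these genes, and myeloid markers rose in the same libraries. With the nuclei that held a myeloid marker UMI left out, 5 of the 14 members still tested were called higher. The list's count fell to 6 without day 3 replicate 2. No interferon response gene was called by edgeR among 23 tested (median 0.31, with 2 at an unadjusted p under 0.05 and 0 called by DESeq2), and H2-K1, a class I antigen presentation gene, stood at 136, 108, 104 and 168 CPM.

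Matrix genes did not move as a block; individual members rose and others fell. Among 33 tested matrix glycoproteins and elastic fibre genes, 5 rose and 4 fell, with a median log2 fold change of 0.24. Tnc, the anti-adhesive glycoprotein of wounds (chr4:63959785-64047015, minus strand), stood at 45.5, 141, 988 and 633 CPM (3.03 ± 0.53, edgeR adjusted p = 0.0104). Ltbp2, a binding protein of elastic microfibrils, stood at 15.2, 10.3, 283 and 223 CPM (4.49 ± 0.48, edgeR adjusted p = 0.00221). Fbn2, the fibrillin of developing tissue, stood at 30.3, 18.5, 145 and 190 CPM (2.93 ± 0.42, edgeR adjusted p = 0.00504). These 3 were several-fold higher in each day 3 library than in either uninjured library. Tnxb, the tenascin of resting connective tissue, went the other way with 414, 568, 19.2 and 26.8 CPM (-4.44 ± 0.38, edgeR adjusted p = 0.00141). Spp1 and Fbln2 also rose, and Hmcn2, Ltbp4 and Eln, the gene of elastin, also fell.

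Collagens outside the gate split in the same manner, with 3 of 23 called higher, 5 lower and a median log2 fold change of 0.03. Col5a1, a fibril-forming collagen chain, Col27a1 and the transmembrane collagen Col23a1 rose. Col23a1 stood at 65.7, 44.1, 258 and 133 CPM and lost its call without day 3 replicate 1 (1.18, edgeR adjusted p = 0.177). The 5 that fell were Col15a1, Col4a1, Col4a2, Col4a5 and Col6a6, mostly collagens of basement membranes and their borders. Col15a1 stood at 106, 126, 25.5 and 24.9 CPM (-2.26 ± 0.41, edgeR adjusted p = 0.0111), with both day 3 libraries about equal, and lost its call with the gate on Prrx1 and Pdgfra alone (-1.76, edgeR adjusted p = 0.0795). Col6a6 stood at 45.5, 23.9, 2.13 and 3.19 CPM and lost its call without uninjured replicate 2 (-4.08, edgeR adjusted p = 0.126) or day 3 replicate 2 (-3.65, edgeR adjusted p = 0.112).

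Of 16 tested basement membrane genes, edgeR called 4 lower and none higher, with a median log2 fold change of -1.07. Their calls were 3 lower and 1 higher, of 15 tested, with the gate on Prrx1 and Pdgfra alone, and the same counts with nuclei holding a Schwann or adipocyte marker UMI left out. The list summed to 6191 and 5016 CPM in uninjured bone and to 1858 and 2951 CPM at day 3. Lama2, the laminin chain around muscle and resting fibroblasts (chr10:26980036-27619758, minus strand), stood at 2840, 1780, 343 and 699 CPM (-2.22 ± 0.42, edgeR adjusted p = 0.0139). Ntn4, a laminin-binding netrin, stood at 268, 227, 51.1 and 86.8 CPM (-1.86 ± 0.34, edgeR adjusted p = 0.012), and Nid1, which links laminin to collagen IV, at 172, 201, 49.0 and 61.9 CPM (-1.79 ± 0.34, edgeR adjusted p = 0.0138). All uninjured values of these 3 genes lay above all day 3 values. Sgcd, a sarcoglycan, stood at 1188, 1043, 404.5 and 441 CPM and lost its call without day 3 replicate 2 (-1.29, edgeR adjusted p = 0.0541). Endothelial and Schwann marker levels were lower at day 3 in the same sums. The part of the endothelial transcripts was not tested, and that of the Schwann transcripts not beyond the counts given above.

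Enzymes that modify and crosslink collagen gave 4 of 26 called higher and 1 lower, with a median log2 fold change of 0.94. Loxl3, a lysyl oxidase, stood at 75.8, 72.9, 356 and 309 CPM (2.17 ± 0.36, edgeR adjusted p = 0.00819). P4ha3, a prolyl hydroxylase subunit, stood at 0, 21.8, 93.7 and 107 CPM (2.60 ± 0.62, edgeR adjusted p = 0.0321). Lox and Plod2, a lysyl hydroxylase, also rose, though Plod2 lost its call without uninjured replicate 2 (1.31, edgeR adjusted p = 0.0764). Pcolce2, an enhancer of procollagen cleavage, fell from 192 and 384 CPM to 23.4 and 31.3 CPM (-3.45 ± 0.42, edgeR adjusted p = 0.00265). Day 3 nuclei thus had more of the crosslinking enzymes named here and less of this enhancer, in both libraries.

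Proteoglycan genes split into enzymes and Vcan on one side and core proteins on the other: 4 of 24 rose, 6 fell and the median log2 fold change was -0.19. The enzymes were Chst11, Chsy1 and Chsy3, which build and sulfate chondroitin chains. Chst11 stood at 50.5, 80.0, 679 and 361 CPM (2.97 ± 0.49, edgeR adjusted p = 0.00792), and Chsy1 at 10.1, 37.5, 209 and 192 CPM (2.76 ± 0.48, edgeR adjusted p = 0.00969). Vcan, the core protein of versican, which carries such chains, also rose. Gpc3, a heparan sulfate proteoglycan of the cell surface, fell from 627 and 405 CPM to 49.0 and 74.0 CPM (-3.08 ± 0.38, edgeR adjusted p = 0.00265). Dcn, Ecm2, Gpc6, Sdc2 and Omd also fell. Omd, the osteoblast-associated osteomodulin, stood at 20.2, 32.6, 0 and 5.11 CPM and lost its call without day 3 replicate 1 (-2.63, edgeR adjusted p = 0.0563) or replicate 2 (-7.54, edgeR adjusted p = 0.0508). Among 8 hyaluronan genes, Has2 and Cd44 rose, Itih5 fell and the median was 1.16. Has2, a hyaluronan synthase, stood at 50.5, 69.6, 166 and 274 CPM (1.77 ± 0.35, edgeR adjusted p = 0.0157). Itih5, a hyaluronan-binding inhibitor chain, fell from 475 and 192 CPM to 2.13 and 11.5 CPM (-5.36 ± 0.63, edgeR adjusted p = 0.00226). The receptor gene Cd44 lost its call without uninjured replicate 1 (1.31, edgeR adjusted p = 0.0717) or day 3 replicate 1 (1.28, edgeR adjusted p = 0.0662).

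Proteases and their inhibitors gave 4 of 29 called higher, 3 lower and a median log2 fold change of -0.09. Adam12, a metalloprotease of activated mesenchyme (chr7:133883199-134232146, minus strand), was among the most abundant genes that rose, with 202, 276, 2005 and 1309 CPM (2.81 ± 0.44, edgeR adjusted p = 0.0067). Adamts4, which cleaves aggrecan and versican, stood at 0, 0.544, 12.8 and 19.8 CPM, a UMI ratio of 37 (6.24 to 1500, edgeR adjusted p = 0.021), and DESeq2 did not call it (4.56, DESeq2 adjusted p = 0.105). Both genes were higher in both day 3 libraries. The secreted protease gene Htra3 fell from 187 and 132 CPM to 19.2 and 30.6 CPM (-2.65 ± 0.40, edgeR adjusted p = 0.0063). Of the tissue inhibitors of metalloproteases, Timp1 rose while Timp2 and Timp3 fell.

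Genes of the actin cytoskeleton and of adhesion to matrix gave 5 of 35 called higher and 2 lower, with a median log2 fold change of 0.44. Diaph3, a formin that elongates actin filaments, stood at 70.8, 29.4, 588 and 243 CPM (3.33 ± 0.64, edgeR adjusted p = 0.0146). Palld, Actn1 and Myh9, genes of stress fibres, also rose, as did Fscn1, the filament bundler, which stood at 0, 10.9, 36.2 and 69.6 CPM and lost its call without day 3 replicate 2 (2.33, edgeR adjusted p = 0.24). The integrin chains Itga2 and Itgb3 fell. Itga2 stood at 70.8, 51.1, 0 and 12.8 CPM (-2.93 ± 0.77, edgeR adjusted p = 0.0464) and lost its call with nuclei capped at 2000 UMIs (-2.36, edgeR adjusted p = 0.104), and Itgb3 at 55.6, 44.1, 4.26 and 9.57 CPM, losing its call without uninjured replicate 2 (-3.00, edgeR adjusted p = 0.072). The called genes of the actin filament rose and the called integrins fell.

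Among transcription factors of mesenchymal cells, 2 of 43 tested rose (4.65%) and 4 fell (9.30%), with a median log2 fold change of -0.24. Over all genes tested, 3.47% were called higher and 5.26% lower, so the list as a whole did not stand out. Runx1, a Runt factor of early skeletal progenitors (chr16:92601466-92826149, minus strand), stood at 65.7, 242, 1699 and 2633 CPM (3.69 ± 0.55, edgeR adjusted p = 0.00573). Its levels did not overlap between the groups. Pbx3, a homeobox cofactor, was the other that rose. Ebf2, a factor of resting fibroblasts and adipocyte precursors, fell from 1567 and 1597 CPM to 285 and 435 CPM (-2.18 ± 0.34, edgeR adjusted p = 0.00697). Foxp2 and Klf4 also fell. The call of Klf4 was lost without uninjured replicate 2 (-2.70, edgeR adjusted p = 0.0794) or day 3 replicate 1 (-2.04, edgeR adjusted p = 0.0667). Of 15 AP-1 and immediate early factors, Fosl1 and Junb rose, none fell and the median was 1.06. Junb stood at 20.2, 20.1, 97.9 and 144 CPM (2.56 ± 0.41, edgeR adjusted p = 0.00747). Fosl1 stood at 0, 2.18, 23.4 and 27.5 CPM and lost its call without uninjured replicate 2 (7.33, edgeR adjusted p = 0.129) or day 3 replicate 2 (3.78, edgeR adjusted p = 0.406).

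The largest rises came from several functions at once. By fitted fold change among genes with at least 50 CPM on average at day 3, the largest included Gm28653, Cxcl5, Brinp3, Ankrd1, Cenpf, Schip1, Car12, 5730419F03Rik, Cdca2, Top2a and Kif26b. Gm28653, a long non-coding RNA, stood at 5.05, 1.09, 113 and 372 CPM, a UMI ratio of 212 (72.2 to 1031, edgeR adjusted p = 0.00221). Brinp3, a gene first known from neurons (chr1:146494760-146902472, plus strand), stood at 0, 2.72, 230 and 210.0 CPM (6.48 ± 0.58, edgeR adjusted p = 0.00141), and Kif26b, an atypical kinesin of migrating cells, at 35.4, 9.25, 426 and 532 CPM (4.95 ± 0.58, edgeR adjusted p = 0.00225). The day 3 libraries were close to each other for Brinp3 and Kif26b, though 1 nucleus held 33.5% of the Kif26b UMIs in day 3 replicate 1. Ankrd1, a stretch-responsive nuclear cofactor, stood at 0, 1.09, 49.0 and 147 CPM, a UMI ratio of 126.5 (34.7 to 1050, edgeR adjusted p = 0.00321). Car12, a carbonic anhydrase of the cell surface, stood at 0, 1.63, 83.0 and 40.9 CPM, a ratio of 34.3 (11.4 to 169, edgeR adjusted p = 0.00897). Schip1 was the exception to agreement between replicates, with 0, 1.63, 196 and 11.5 CPM, and it lost its call without day 3 replicate 1 (2.77, edgeR adjusted p = 0.333). It stood low in the 3 libraries counted on 31055 genes and high in the one counted on 32285, and the part of the annotation in its level was not tested.

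The largest falls were mostly of genes that were near absent from day 3 nuclei. They included, in order, Galnt15, C7, Lrfn2, Slc7a10, Luzp2, Col4a3, Gm16168, Myoc, Fmo2 and Plcxd3. Galnt15, which begins mucin-type glycans (chr14:32028989-32062197, plus strand), fell from 197 and 117 CPM to no UMI in either day 3 library, at least 84.7-fold lower (edgeR adjusted p = 0.00175). C7, the complement component of the membrane attack complex, stood at 263, 1471, 0 and 1.28 CPM, a UMI ratio of 1379 in favour of uninjured bone (381 to 11389, edgeR adjusted p = 0.00221). Luzp2, a leucine zipper gene, stood at 1198, 295, 2.13 and 3.83 CPM (-7.85 ± 0.84, edgeR adjusted p = 0.00221), and Myoc, the matrix protein myocilin, at 116, 441, 0 and 2.55 CPM (-7.29 ± 0.83, edgeR adjusted p = 0.00225). In each of these 3 the uninjured libraries differed several-fold from each other, and as ratios by much less than they differed from day 3. Slc7a10, an amino acid transporter, stood at 25.3 and 91.9 CPM against 0 and 0, at least 58-fold lower (edgeR adjusted p = 0.00641), and 1 nucleus held 80% of its UMIs in uninjured replicate 1. Lrfn2, a synaptic adhesion gene, stood at 157 and 20.7 CPM against 0 and 0, at least 23.0-fold lower (edgeR adjusted p = 0.0177). For Lrfn2, 1 nucleus held 25.8% of the UMIs in uninjured replicate 1 and 1 nucleus 50% in uninjured replicate 2. Plcxd3 had a UMI ratio of 169 (57.6 to 824), and the basement membrane collagen gene Col4a3 a ratio of 131 (23.1 to 5213). Gm16168 is annotated as an antisense RNA, so its reads may not be told apart from those of the gene on the opposite strand. In uninjured replicate 1, 1 nucleus held 93.3% of its UMIs.

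**Figure D4:**
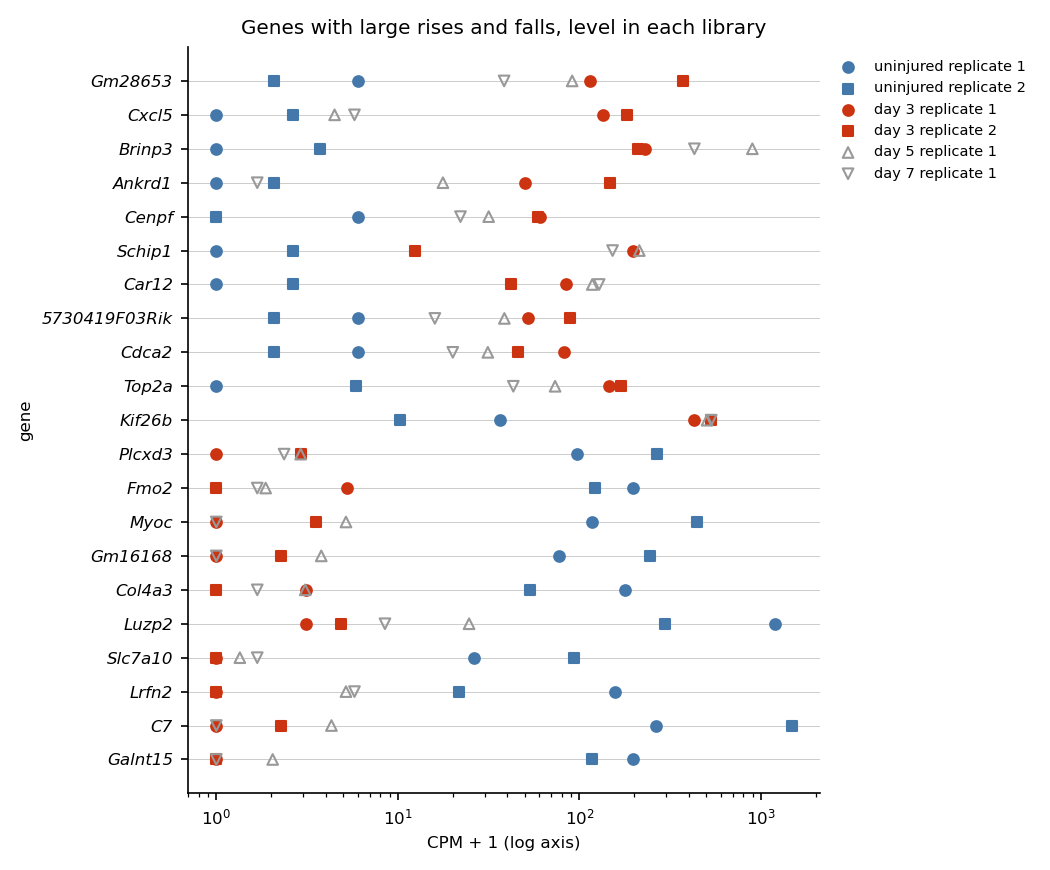
Level of genes with the largest rises and falls (vertical axis) as CPM + 1 on a log axis (horizontal axis), with 1 point for each library. Rises such as Brinp3 and Kif26b show both day 3 points above 200 CPM, falls such as Galnt15 show both day 3 points at 0, and Schip1 shows its day 3 points apart at 196 and 11.5 CPM.

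Many adhesion and guidance genes best known from neurons fell. Of 43 tested, 15 fell and 2 rose, with a median log2 fold change of -1.03, and the list summed to 18455 and 17348 CPM in uninjured bone and to 6829 and 9048 CPM at day 3. Nlgn1, a postsynaptic adhesion protein (chr3:25426215-26332460, minus strand), stood at 2340, 685, 10.6 and 35.1 CPM (-6.01 ± 0.72, edgeR adjusted p = 0.00233). Ntng1, a membrane-anchored netrin, stood at 728, 449, 6.39 and 12.8 CPM (-5.87 ± 0.47, edgeR adjusted p = 0.00141). Tenm2, a teneurin, stood at 596, 536, 31.9 and 11.5 CPM (-4.87 ± 0.57, edgeR adjusted p = 0.00225). All 3 were abundant in both uninjured libraries and low in both day 3 libraries. The other 12 that fell were the cell surface proteins Opcml, Negr1 and Lsamp, the semaphorins Sema3a, Sema3c, Sema3d, Sema3e and Sema5a, and Epha5, Ntn1, Csmd1 and Tenm4, while Brinp3 and Nrxn3 rose. Schwann cell markers fell too. With every nucleus holding a Schwann or adipocyte marker UMI left out, 13 of the 38 members still tested were called lower. Leaving out each library in turn gave 15 to 18. Of 25 channel and calcium genes, edgeR called 3 lower and none higher, with a median of 0.05, and DESeq2 called 3 lower and 1 higher. The 3 called by edgeR were Cacna2d3, Kcnip1 and Kcnt2, a sodium-activated potassium channel that fell from 505 and 502 CPM to 83.0 and 107 CPM (-2.43 ± 0.32, edgeR adjusted p = 0.00359).

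Many detoxification and retinoid metabolism genes fell. Of 26 tested, 9 fell and 1 rose, with a median log2 fold change of -2.48, and the list summed to 2562, 1865, 613 and 927 CPM. Fmo2, a flavin monooxygenase, stood at 197, 121, 4.26 and 0 CPM, a UMI ratio of 131 (35.9 to 1087, edgeR adjusted p = 0.0033). Cyp2e1, a cytochrome P450, stood at 70.8, 172, 2.13 and 0.638 CPM, a ratio of 165 (45.3 to 1368, edgeR adjusted p = 0.00221), and 1 nucleus held 92.9% of its UMIs in uninjured replicate 1. Inmt, a methyltransferase of small amines, stood at 60.6 and 36.4 CPM against no UMI at day 3, at least 26.3-fold lower (edgeR adjusted p = 0.00605). These were at or near 0 in both day 3 libraries. Aldh1a1, which makes retinoic acid, Adh7, Aox1, Ephx1, Fmo1 and Sult1a1 also fell, and Cyp7b1, an oxysterol hydroxylase, rose. DESeq2 called 8 members lower and 0 higher, so it did not call Cyp7b1. Sult1a1 stood at 30.3, 23.4, 0 and 1.28 CPM and lost its call without day 3 replicate 2 (-7.43, edgeR adjusted p = 0.0967). Leaving out each library in turn gave 7 to 12 genes lower. Adipocyte markers fell in the same libraries; without the nuclei holding a Schwann or adipocyte marker UMI, 7 of the 24 members tested were called lower, and the markers' part was not tested further.

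Lipid uptake, efflux and storage genes behaved alike: 10 of 28 fell, 1 rose and the median log2 fold change was -1.52. Abca6, a lipid transporter, fell from 147 and 198 CPM to 6.39 and 9.57 CPM (-4.44 ± 0.44, edgeR adjusted p = 0.00175), and Abca1, Abca8a, Abca8b and Abca9 of the same family also fell. Apod, a carrier of small lipids, stood at 495, 355, 10.6 and 38.3 CPM (-4.06 ± 0.47, edgeR adjusted p = 0.00225), and Fabp4, a fatty acid binding protein, at 111, 172, 2.13 and 12.1 CPM (-4.14 ± 0.54, edgeR adjusted p = 0.00338). The uninjured values of these 3 all exceeded the day 3 values. Scd1, a desaturase, stood at 20.2, 133, 14.9 and 1.92 CPM (-3.81 ± 1.02, edgeR adjusted p = 0.049), with its lower uninjured value close to a day 3 value, and DESeq2 did not call it (-3.12, DESeq2 adjusted p = 0.385). Lipe and Lpl, lipases that are also adipocyte genes, fell as well, and Acsl4, an acyl-CoA ligase, rose. Adipocyte markers fell in the same libraries; with the nuclei that held a Schwann or adipocyte marker UMI left out, 7 of the 24 members still tested were called lower.

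Complement and coagulation genes also fell, 6 of 20 tested with none higher and a median log2 fold change of -1.62. Beside C7 they included Cfd, Cd55, Procr and F3, the tissue factor gene. Cd55, which shields cells from complement, stood at 162, 140, 6.39 and 18.5 CPM (-3.49 ± 0.46, edgeR adjusted p = 0.0034). Procr, the protein C receptor, stood at 65.7, 58.7, 0 and 3.19 CPM (-4.79 ± 0.74, edgeR adjusted p = 0.0067). Cfd, complement factor D, which adipocytes also make, stood at 25.3, 138, 0 and 1.92 CPM, a UMI ratio of 86.3 (29.2 to 421, edgeR adjusted p = 0.00742). A single nucleus held 100% of the Cfd UMIs in uninjured replicate 1 and 29.5% in uninjured replicate 2. All 3 were near absent at day 3. The list's count ranged from 3 without uninjured replicate 2 to 11 without uninjured replicate 1.

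Signalling pathways changed in single members. For Hedgehog and Notch together, 4 of 18 tested fell, none rose and the median log2 fold change was -0.34, and all 4 belong to the Hedgehog pathway. Gli1, its transcriptional effector and target, stood at 70.8, 58.7, 2.13 and 1.92 CPM (-5.03 ± 0.69, edgeR adjusted p = 0.00423). Gli2, the main activator, stood at 298, 190, 29.8 and 65.7 CPM (-2.34 ± 0.41, edgeR adjusted p = 0.01), and Ptch1, the receptor and a target, at 303, 195, 29.8 and 76.6 CPM (-2.22 ± 0.42, edgeR adjusted p = 0.014). The 3 fell in both day 3 libraries without overlap. Hhip, an antagonist that binds the ligand, stood at 15.2, 52.8, 6.39 and 0 CPM and lost its call without day 3 replicate 2 (-2.41, edgeR adjusted p = 0.113). Wnt genes gave 2 higher (6.67%) and 3 lower (10%) of 30, with a median of -0.86. Over all genes tested the shares were 3.47% and 5.26%. The secreted inhibitors moved both ways: Sfrp1 rose, with 0, 19.0, 102 and 179 CPM (3.22 ± 0.60, edgeR adjusted p = 0.0127), whereas Sfrp4 fell from 80.9 and 178 CPM to 2.13 and 9.57 CPM (-4.33 ± 0.58, edgeR adjusted p = 0.00397) and Dkk2 from 142 and 465 CPM to 61.7 and 30.6 CPM (-2.82 ± 0.61, edgeR adjusted p = 0.0223). Of the receptors for R-spondin, Lgr4 fell, and Lgr5 was called higher but not without day 3 replicate 2 (1.53, edgeR adjusted p = 0.375).

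In the TGF-beta and BMP pathways, 2 of 36 rose (5.56%) and 4 fell (11.1%), with a median log2 fold change of 0.19. Over all genes tested the shares were 3.47% and 5.26%. Inhba, the activin A subunit, rose from 5.05 and 16.3 CPM to 87.3 and 65.7 CPM (2.49 ± 0.57, edgeR adjusted p = 0.0281), as did Tgfbi, a TGF-beta target. Those that fell included Chrdl1, a BMP antagonist, and the ligands Bmp3 and Gdf10. Bmp3 lost its call without day 3 replicate 2 (-6.97, edgeR adjusted p = 0.25) and Gdf10 without the same library (-2.51, edgeR adjusted p = 0.0769). Ligands and receptors of receptor tyrosine kinases, with the IGF binding proteins, gave 1 of 41 higher (2.44%), 6 lower (14.6%) and a median of -0.21. Nrg1, a ligand of ErbB receptors, rose from 5.05 and 19.0 CPM to 80.9 and 111 CPM (2.59 ± 0.50, edgeR adjusted p = 0.0148). The binding protein Igfbp6 fell from 91.0 and 209 CPM to 2.13 and 6.38 CPM (-5.02 ± 0.58, edgeR adjusted p = 0.00225), and Igfbp5 from 238 and 516 CPM to 27.7 and 83.6 CPM (-2.80 ± 0.48, edgeR adjusted p = 0.00981). Both IGF binding proteins were lower in each day 3 library. Axl, Kitl and Pdgfd also fell, and Fgf10 was called lower but not without day 3 replicate 1 (-2.62, edgeR adjusted p = 0.083) or replicate 2 (-7.35, edgeR adjusted p = 0.105).

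Steroid hormone and clock genes were lower at day 3 in part. Of 14 genes of the glucocorticoid response, 4 fell, 1 rose and the median log2 fold change was -1.13, while the list summed to 4912, 3280, 1771 and 1294 CPM. Nr3c2, the mineralocorticoid receptor, stood at 379, 452, 19.2 and 83.6 CPM (-3.03 ± 0.48, edgeR adjusted p = 0.00718), and Glul, glutamine synthetase, at 121, 83.8, 4.26 and 17.2 CPM (-3.09 ± 0.55, edgeR adjusted p = 0.0107). Sgk1, a kinase that corticosteroids induce, moved the other way, with 20.2, 42.4, 213 and 158 CPM (2.40 ± 0.45, edgeR adjusted p = 0.0137). Klf9 and Tsc22d3 also fell, the latter not without uninjured replicate 1 (-1.21, edgeR adjusted p = 0.117). Of 18 clock genes, 5 fell, 1 rose and the median was -0.93. Hlf, an output factor of the clock, stood at 80.9, 116, 10.6 and 16.6 CPM (-2.88 ± 0.45, edgeR adjusted p = 0.00688), and Tef and Nr1d2 fell too. Nr1d1, a repressor in the core loop, fell in the full fit but not without uninjured replicate 2 (-1.91, edgeR adjusted p = 0.193), and the same held for Rorb (-2.58, edgeR adjusted p = 0.136). Nfil3, a repressor of the targets of Hlf and Tef, rose in the full fit but not without uninjured replicate 2 (3.15, edgeR adjusted p = 0.0628) or day 3 replicate 1 (2.67, edgeR adjusted p = 0.0836). The hour of collection is not given in the sources used here, and its part in the clock genes was not tested.

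Differentiation and sterol genes gave little. Ibsp, the bone sialoprotein gene, was the 1 of 5 tested osteogenic markers called, with 0, 15.2, 59.6 and 120 CPM (2.89 ± 0.64, edgeR adjusted p = 0.0247). A single nucleus held 28.6% of its UMIs in day 3 replicate 1 and 47.9% in day 3 replicate 2. The call of Ibsp was lost with nuclei capped at 2000 UMIs (2.07, edgeR adjusted p = 0.0756) and with no upper limit on genes per nucleus (2.37, edgeR adjusted p = 0.0602). None of 5 chondrogenic markers was called by edgeR (median log2 fold change -1.01, 2 with an unadjusted p under 0.05), nor either of 2 tendon markers (median 1.00, 1 with an unadjusted p under 0.05), nor any of 13 sterol synthesis genes (median 0.43, 1 with an unadjusted p under 0.05), and DESeq2 called 0 in each of these lists. Sox6, a cofactor of cartilage formation, stood at 495, 234, 106 and 206 CPM, and Comp, a cartilage and tendon matrix protein, at 35.4, 146, 25.5 and 70.2 CPM. Thbs4, a tendon thrombospondin, stood at 106, 131, 311 and 192 CPM, and Srebf2, the regulator of sterol synthesis, at 60.6, 70.2, 61.7 and 90 CPM. Several of these list members overlapped between the groups or missed the threshold, which does not show that they were alike.

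**Figure D5:**
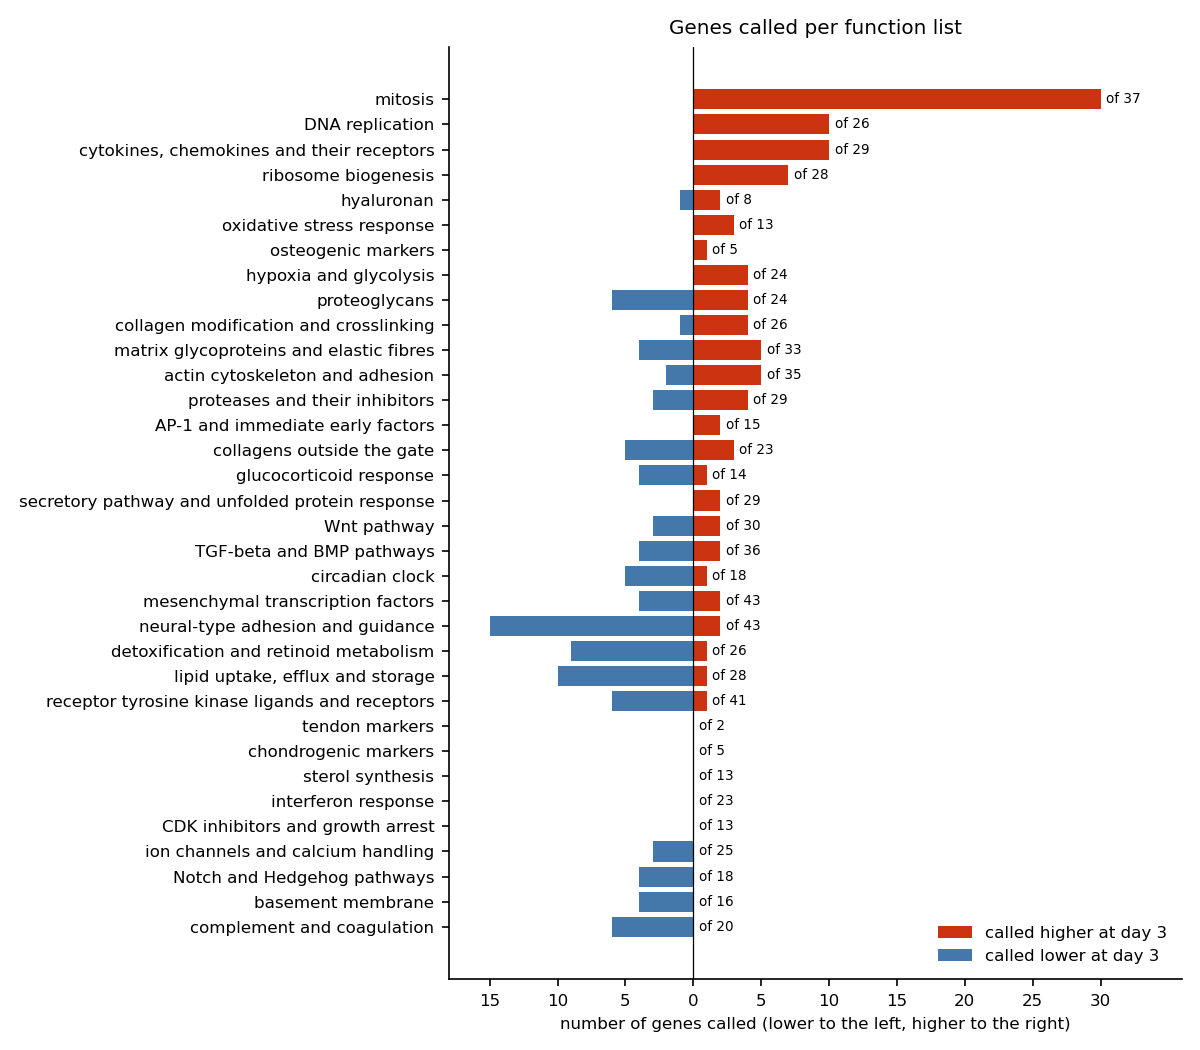
Number of genes called lower (to the left) and higher (to the right) at day 3 in each function list (vertical axis), out of the genes tested. Mitosis stands out with 30 of 37 higher, and neural-type adhesion and guidance has the most genes lower, 15 of 43, while 3.47% of all tested genes were called higher and 5.26% lower.

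Genes that fell were longer than those that rose. The median genomic length was 88.1 kb for the 532 lower genes, 35.9 kb for the 351 higher genes and 34.4 kb for all genes tested, as a description with no test. Nuclear RNA holds unspliced transcripts, and reads in introns as well as exons were counted. The median GC content of their transcripts was close, with 48.3% for lower, 48.7% for higher and 48.6% for all tested genes.

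Days 5 and 7 had 1 library each, with 1281 and 695 nuclei by the same rule, and no test was made on them. Of the 351 genes that rose at day 3, 342 at day 5 and 311 at day 7 stood above both uninjured libraries, and 260 and 298 stood below both day 3 libraries. Of the 532 that fell, 515 and 510 stood below both uninjured libraries. The called genes had thus mostly not returned to uninjured levels in these single libraries, though many of those that rose lay lower than at day 3. All 30 mitosis genes called higher were above both uninjured libraries on both days and summed with the rest of the list to 1160 CPM at day 5 and 741 CPM at day 7. Runx1 stood at 2237 CPM at day 5 and 1426 CPM at day 7, and Adam12 at 1259 and 805 CPM. Fbn2 was higher than at day 3, with 542 and 502.5 CPM. Of the Hedgehog genes, Gli2 stood at 110 and 249 CPM and Ptch1 at 305 and 479 CPM, the latter above both uninjured libraries. Sox6 stood at 1244 and 1750 CPM, and Comp at 405 and 526 CPM, each above all 4 earlier libraries.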

How the data were processed

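The authors deposited, for each library, a matrix of UMI counts per gene and barcode made with Cell Ranger (versions 6.0.0 and 7.1.0 per the labels) on mouse build mm10; nuclei had been sorted for DNA dye and loaded on a 10x 3′ v3.1 kit. Reads in introns and in exons were both counted, per the study's methods. The nuclei of the gene rule were summed per library over the 30406 genes that all libraries list. No doublet caller and no ambient RNA correction was run; the limits on Ptprc, Pecam1 and detected genes stood in for them. Sums of 2 uninjured and 2 day 3 libraries were tested with edgeR 4.0.16 in R 4.3.3 (filterByExpr, TMM, glmQLFit, glmQLFTest, Benjamini-Hochberg, threshold 0.05), without covariates, after the script was tested on simulated data. SE is the log2 fold change over the square root of the F statistic. The genes of the rule, mitochondrial and ribosomal protein genes (107 of 10214 passing the filter) stayed in the totals and out of all counts. CPM is the count scaled to 1000000 UMIs of the counted nuclei; edgeR's own scaling factors lay between 0.87 and 1.16.

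Named were the 12 largest changes in each direction whose higher group averaged 50 CPM or more, with 1 direction in all 4 library pairs, the up to 4 largest called members of each of 34 function lists (in lists with fewer than 2 called, the 2 most abundant) and the markers of 11 cell type lists. Some genes that meet this rule are not reported here. Further called members are named without values, and Taco1 and Gm26917 outside this rule. Nuclei, lists and members were chosen with earlier results of these data known. For genes with no UMI in 1 group the bound allows 3 UMIs over that group, and with 1 to 3 UMIs an exact 95% ratio interval is given. The 2-sided intervals and bounds cover counting error only. Gene positions are from GENCODE vM21 (GRCm38) and promoters from RefSeq (GRCm38.p6). Alternatives included DESeq2 1.42.0, other gates and filters, and leaving out each library; leaving out nuclei with myeloid, mitosis or Schwann and adipocyte genes was added after seeing the data. The promoter check was void for all called genes, with under 80% matched, and is given for the mitosis list.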

Additional observations from a re-analysis of the deposited data

Results flagged for a closer look

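The day 5 and day 7 libraries stayed out of the test, with 1 library each, and the genes with the largest rises at day 3 that are given here stood above both uninjured libraries there as well, except Ankrd1 at day 7, as values with no test. Brinp3 stood at 894 CPM at day 5 and 428 CPM at day 7, above its day 3 levels, Kif26b at 503 and 530.4 CPM, near its day 3 levels, and Car12 at 117 and 127 CPM, above both day 3 libraries. Schip1 stood at 212.5 and 151 CPM, in libraries counted on 32287 and 32285 genes, where day 3 replicate 1, in which it was high, was counted on 32285. The mitotic genes Top2a (72.4 and 42.2 CPM), Cenpf (30.6 and 21.1 CPM) and Cdca2 (30.3 and 19.1 CPM) stood between the uninjured and day 3 levels, as did the non-coding RNA Gm28653 (90.1 and 37.4 CPM) and 5730419F03Rik (37.6 and 14.98 CPM). Cxcl5 stood at 3.48 and 4.77 CPM, close to the uninjured libraries, and Ankrd1 at 16.7 CPM at day 5 and 0.681 CPM at day 7, below uninjured replicate 2 (1.09 CPM).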

How the results depend on the processing

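Against 351 genes higher and 532 lower, DESeq2 called 225 and 424, library totals without TMM 288 and 407, and no filter on low counts 606 and 834 (20414 genes tested). A gate without Postn gave 316 and 487, a gate on Prrx1 and Pdgfra alone 263 and 404, a gate of 5 UMIs 278 and 432, no upper gene limit 363 and 567, and nuclei capped at 2000 UMIs 240 and 434. Settings that kept few nuclei, or few UMIs per nucleus, also tested fewer genes. Nuclei thinned to 500 UMIs before the gate numbered 53, 234, 96 and 358 and gave 26 and 63 of 1991 tested. Of the named genes, 18 lost their call there, among them Has2, Tnc, Adam12, Hif1a, Loxl3 and Ebf2. Leaving out nuclei with any other cell type marker kept 9, 36, 37 and 7 nuclei and gave 0 and 0 of 1155 tested by edgeR (77 higher and 139 lower at an unadjusted p under 0.05, DESeq2 not run there), and Col23a1 reversed to -0.003. Leaving out nuclei with myeloid markers gave 223 and 361 of 4641 tested, nuclei with mitosis genes 86 and 152 of 3956, and nuclei with Schwann or adipocyte markers 253 and 423 of 8995. Leaving out each library gave 370 to 494 higher and 541 to 690 lower. Of 125 named genes that were called, 35 lost the call without at least 1 library. Depth limits genes under about 10 CPM, which hold few UMIs in the smallest library. No paired analysis was possible because the labels give the libraries no shared replicate numbers.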
